A study of Mus musculus with 8 samples.

Results

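Among 1135 miRNA probes read on mouse liver arrays, 5 of the 6 brightest carried the names mmu-miR-3968, mmu-miR-5100, mmu-miR-690, mmu-miR-720 and mmu-miR-5126, with means of 48990, 26006, 13112, 12020 and 6167 intensity units over the 8 arrays, and the remaining one was miR-122, the main miRNA of hepatocytes. The 5 probes were chosen by this mean spot intensity, among names whose origin as miRNAs is in doubt, and with earlier results of these data known. Their brightness is therefore a description and was not tested. Together they carried 32.3% ± 1.60 of the miRNA probe signal in control liver and 36.2% ± 2.95 in liver of mice on the methionine- and choline-deficient (MCD) diet (SD, n = 4). Of the 5, miR-5126 was lower in MCD liver, and miR-3968, miR-5100, miR-690 and miR-720 did not pass the test.

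The livers came from male C57BL/6N mice fed either a normal diet (control, 4 arrays) or the MCD diet (4 arrays), a dietary model of steatohepatitis in which hepatocytes accumulate fat and the liver becomes inflamed and fibrotic. The labels give 23 weeks on the diet for both groups, whereas the study's methods give a shorter time, and no other treatment was given to these mice. No label ties an array to a mouse, so that the p-values given here rest on the spread between the 4 samples of a diet, which may be technical. A change in whole liver RNA cannot tell fewer cells of a type from less of an RNA per cell.

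A miRNA is cut from a hairpin transcript by Drosha and then Dicer and is loaded into an Argonaute protein, where bases 2 to 8, the seed, pair with target mRNAs. An oligonucleotide probe captures any labelled RNA whose sequence pairs with it, so its signal is not proof that the captured RNA came from the hairpin. Total RNA also holds tRNAs and rRNAs and their fragments, some of them as short as a miRNA. The name miR-720 is a known case, since that entry matched a fragment of a threonine tRNA and was withdrawn from the miRNA registry.

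RefSeq held a mature sequence for 4 of the 5 names. They are shown, on build GRCm38.p6 and with the seed in capitals, because the identity of the captured RNA turns on them.
miR-3968: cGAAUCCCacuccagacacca
miR-5100: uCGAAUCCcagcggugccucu
miR-690: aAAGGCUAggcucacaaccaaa
miR-5126: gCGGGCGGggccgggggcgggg
The first lies at chr11:115447969-115447989 on the minus strand, inside the span of Trim80. The sequence of miR-5100 lies at chr11:60728698-60728718 on the plus strand, inside the span of Mief2. That of miR-690 lies at chr16:28599940-28599961 on the minus strand within the Fgf12 span, and that of miR-5126 at chr1:84695890-84695911 on the plus strand within the Dner span. Whether these positions are exonic or intronic was not looked up, as the gene table used gives gene spans. No other of the 1679 mature mouse miRNAs in RefSeq had the seed of any of the 4.

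The miR-3968 and miR-5100 sequences shared a run of 9 bases, given here in capitals, at bases 1 to 9 of the former and 2 to 10 of the latter.
miR-3968: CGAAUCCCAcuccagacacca
miR-5100: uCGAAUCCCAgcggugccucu
No other of the 1679 mature sequences held this run. Its first 7 letters, CGAAUCC, also stand in the T arm of many tRNAs, and in the mature set they occurred in 2 of 1679 sequences (0.119%), which were these 2. The search was on the RNA strand given. Mature tRNAs end in the letters CCA, which an enzyme adds after transcription, and so did miR-3968, as 1 of 23 mature sequences (1.37%). A match of this length is a description of the letters and does not show which RNA was on the spot. The sequences of miR-690 and miR-5126 held neither the run nor the final CCA, and their longest runs in common with the other members were 2 to 4 bases.

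None of the 4 hairpins overlapped an annotated tRNA or rRNA gene. The nearest such gene lay 34.11 kb from Mir3968, 679.19 kb from Mir5100, 4401.86 kb from Mir690 and 9879.02 kb from Mir5126. The hairpin of miR-690 shared a stretch of 20 bases with the promoter windows of 5 other genes, and 1.59% of 1005 mouse hairpins shared one with at least as many, while that of miR-3968 shared one with none. The hairpins of miR-5100 and miR-5126 each shared such a stretch with 1 other gene, and 5.075% of the 1005 hairpins did so with at least 1. Guanine and cytosine made up 57.1% of miR-3968, 61.9% of miR-5100 and 45.5% of miR-690, against a median of 52.2% over the mature set. In miR-5126 they made up 100%, and it was the only sequence of the 1679 for which this was so.

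Ordered by mean spot intensity, miR-3968 stood first on every array. Intensity, in scanner units, is the median of the pixels of a spot. The miR-122 probe held rank 2 on each control array and rank 3 or 4 on the MCD arrays, and miR-5100 held rank 3 on every control array and rank 2 on every MCD array. The order of different probes also depends on how well each captures its RNA, so it ranks signals and not copies. The dimmest member was miR-5126, and just outside the choice were miR-2137 at a mean of 5359 units and let-7a at 4726. None of the 1135 probes reached the scanner's maximum, the brightest reading being 60807.

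**Figure D1:**
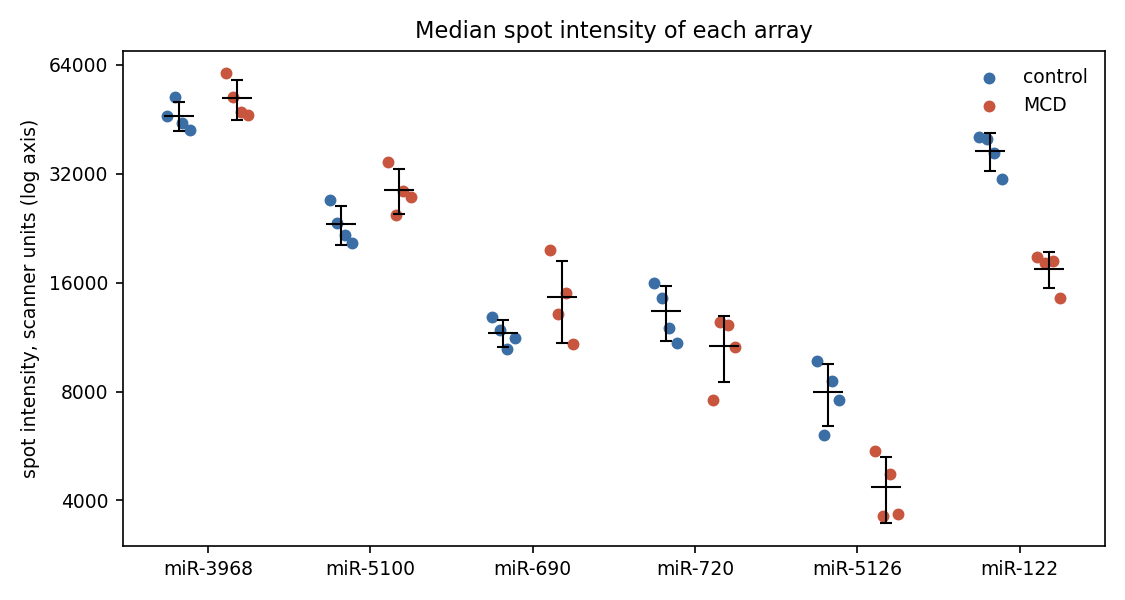
Median spot intensity in scanner units, on a log axis, of the 5 probes and of miR-122 on 4 control and 4 MCD arrays. Points are arrays and bars are the mean and SD. All MCD points lie below the control points for miR-5126 and miR-122, and the points of the diets overlap for the other 4 probes.

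Each of the 5 probes was read from 1 spot per array, in 5 different blocks of the array. On the control arrays 1 to 4, the miR-3968 spot read 46351, 52196, 44153 and 42327 units. On the MCD arrays 1 to 4 it read 60807, 52132, 47365 and 46592. The diets overlapped, since MCD 2, 3 and 4 lay within the control range and MCD 1 alone lay above it. In the scaled values, the log2 change from control to MCD was 0.14 ± 0.13 (SE), with a 95% interval of -0.13 to 0.41 (limma, adjusted p = 0.630).

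For miR-5100, the control arrays 1 to 4 read 27052, 23409, 21630 and 20608 units. The MCD arrays read 34429, 24537, 28739 and 27645. Control 1 lay above MCD 2, and the other arrays kept the diets apart. After scaling, the MCD arrays all lay above the control arrays, at 14.64 to 15.02 against 14.30 to 14.63 on the log2 scale, so that the groups were apart by a narrow margin. The log2 change was 0.30 ± 0.13 (SE), with a 95% interval of 0.04 to 0.56, and it did not pass after adjustment (limma, adjusted p = 0.181). Quantile normalization turned it into a call, with a log2 change of 0.69 and an adjusted p of 0.000128. That method gives probes of equal rank the same value on each array, so this change is the step from rank 3 in control to rank 2 in MCD.

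The miR-690 probe, named for a miRNA reported in macrophage vesicles of mice, read 12828, 11844, 10468 and 11216 units on control arrays 1 to 4. On the MCD arrays it read 19648, 13069, 14968 and 10855. MCD 1 was the highest of all arrays and MCD 4 lay below control 4, so the diets overlapped. The log2 change was 0.30 ± 0.14 (SE), with a 95% interval of -0.00 to 0.59 (limma, adjusted p = 0.257). It depended on single arrays, being 0.15 without MCD 1 and 0.43 without MCD 4, where it passed the test (limma, adjusted p = 0.0458).

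For miR-720, the control arrays read 15915, 14492, 12001 and 10923 units. The MCD arrays read 7592, 12440, 12195 and 10601. MCD 1 was the lowest of the 8 and the other MCD arrays lay within or just below the control range. The log2 change was -0.35 ± 0.16 (SE), with a 95% interval of -0.68 to -0.02 (limma, adjusted p = 0.226), and it was -0.17 without MCD 1. The pixels of the miR-720 spot on MCD 1 had a coefficient of variation of 43.6%, whereas the other 39 member spots lay between 5.34% and 14.2% and the median over all probe spots was 27.2%. With the mean of the pixels in place of the median, the change over all 8 arrays was -0.28. The part of this spot's unevenness in the low value was not tested further. With scaling to the spike control spots the change was -0.55 and passed (limma, adjusted p = 0.0306), and with scaling to the 75th percentile it was -0.57 (adjusted p = 0.0477), but under these scalings the median change of all tested probes was -0.24 and -0.26, against -0.04 in the main comparison. With the 75th percentile the SE was 0.199 for miR-720 and for every other member. That p therefore rests on a spread pooled over probes and not on the spread of miR-720 itself.

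The miR-5126 probe read 9705, 6053, 8549 and 7560 units on control arrays 1 to 4. It read 5471, 3614, 4722 and 3664 on MCD arrays 1 to 4. Every MCD array lay below every control array, and control 2 was the lowest control. The mean fell from 7967 ± 1548 to 4368 ± 896 units (SD, n = 4), and in the scaled values it was 1.87-fold lower in MCD, a log2 change of -0.90 ± 0.15 (SE) with a 95% interval of -1.21 to -0.60 (limma, adjusted p = 9.81e-05). By p it was 28th and by size of the fall 11th among the tested probes. The change was -0.50 under quantile normalization (limma, adjusted p = 0.00602). Under plain subtraction of the blank spots it was -0.99 and did not pass (limma, adjusted p = 0.0538).

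Across the array, 1076 probes were bright enough to be tested, and 93 of them passed (8.64%), with 56 higher (5.2%) and 37 lower (3.44%) in MCD. Of the 5 members, 1 passed, in the lower direction. The scaled values of the diets did not overlap for 139 probes (12.9%), with MCD above control for 70 (6.51%) and below for 69 (6.41%), and for 2 of the 5 members, miR-5100 above and miR-5126 below. The median log2 change of the 5 was 0.14, that of miR-3968, against -0.04 for all tested probes.

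Within an array the 5 probes did not move as a unit. In control the log2 ratio of miR-5126 to miR-3968 was -2.59 ± 0.39, and under MCD it was -3.65 ± 0.24 (SD, n = 4), with no overlap. The ratio to miR-3968 differed between the diets by 0.16 for miR-5100, 0.15 for miR-690 and -0.49 for miR-720, with overlapping arrays for each. These ratios do not depend on the scaling between arrays, and a difference in a ratio shows unequal change without saying which of the 2 probes changed. Over the 8 arrays the scaled values of miR-5100 and miR-690 had a Pearson r of 0.79, and those of miR-3968 an r of 0.63 with miR-5100 and 0.69 with miR-690. The miR-720 values had an r between -0.62 and -0.29 with these 3. All points share the arrays and the diet difference, so these values are descriptions.

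By share of signal, the 5 probes together took 31.0%, 34.4%, 31.2% and 32.6% on control arrays 1 to 4. On MCD arrays 1 to 4 they took 37.8%, 37.3%, 31.8% and 37.9%. The share is the sum of the spots, each less the mean of the blank spots, over the same sum for all 1135 probes. MCD 3 lay within the control range and the other MCD arrays above it. The 10 brightest probes of an array took 43.9% to 54.1% of its signal.

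The shares of single members moved apart. That of miR-3968 was 14.7% ± 1.60 in control and 17.1% ± 2.08 in MCD, with overlap. That of miR-5100 was 7.30% ± 0.24 and 9.48% ± 1.06, and that of miR-690 was 3.63% ± 0.25 and 4.72% ± 0.75, both with every MCD array above every control array (SD, n = 4). The miR-720 share was 4.16% ± 0.39 and 3.53% ± 0.94, with overlap, and that of miR-5126 was 2.46% ± 0.39 and 1.36% ± 0.15, without. How many of all probes kept the diets apart by share was not counted, so these separations are descriptions. In the scaled values the diets overlapped for miR-690.

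A share also moves with the rest of the total. The miR-122 share was 11.7% ± 0.80 in control and 5.71% ± 0.45 in MCD, and with miR-122 left out of the total the 5 members held 36.6% ± 2.05 and 38.4% ± 3.20, with ranges of 34.9% to 39.5% and 33.6% to 40.1% that overlapped. The 4 hepatocyte markers examined, miR-122, miR-192, miR-194 and miR-148a, were each lower in MCD, where 3.44% of all tested probes were lower and 5.2% higher, and their summed share ranged from 14.3% to 16.7% in control and from 7.31% to 8.25% in MCD. Of the mesenchymal markers (miR-199a-3p, miR-199a-5p, miR-214, miR-143 and miR-145) 4 of 5 were higher, with summed shares of 0.37% to 0.42% and 0.74% to 1.49%. Of the leukocyte markers (miR-223, miR-142-3p, miR-142-5p, miR-150 and miR-155) 2 of 5 were higher, with summed shares of 0.11% to 0.14% and 0.20% to 0.35%. Of the endothelial markers miR-126-3p and miR-126-5p the former was higher, with summed shares of 0.98% to 1.09% and 1.28% to 1.74%. Of the red cell markers miR-451, miR-144 and miR-486, 0 of 3 passed, with summed shares of 0.12% to 0.49% and 0.20% to 0.70%. The hepatocyte, mesenchymal, endothelial and red cell markers were above the blank limit on all 8 arrays, as were 3 of the 5 leukocyte markers. The part of these cell types in the changes of the 5 probes was not tested.

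**Figure D2:**
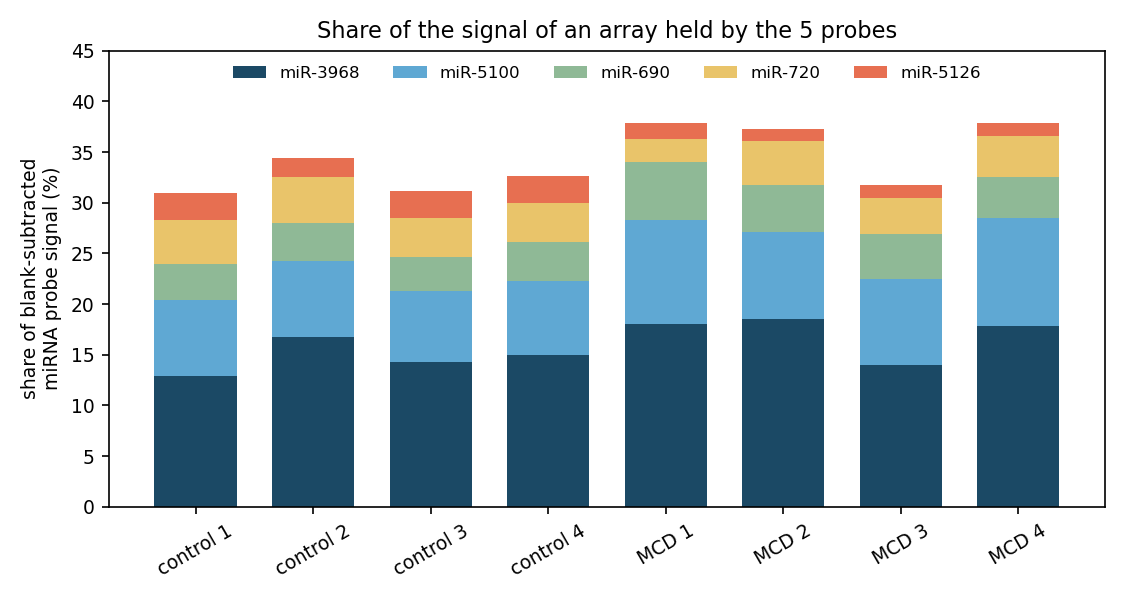
Share of the blank-subtracted signal of all 1135 miRNA probes, in percent, held by each of the 5 probes on the 4 control and 4 MCD arrays, as stacked bars. The stacks reach 31.0% to 34.4% in control and 31.8% to 37.9% in MCD, with MCD 3 the lowest MCD array.

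A scaling that divides each array by its total signal inherits the weight of these probes. From control to MCD the total fell by 0.05 on the log2 scale, and with the 5 probes left out it fell by 0.14. Without miR-3968 alone it fell by 0.10, and without miR-122 alone it was 0.04 higher. By miR-3968 alone the level of the MCD arrays was 0.16 higher, which a scaling to it would subtract, whereas the median of the probes detected on all arrays, used for the main comparison, was 0.02 higher. The SDs between arrays of 1 diet were 0.07 for that median, 0.14 in control and 0.19 in MCD for the total, and 0.16 and 0.23 for the total without the 5, so none of the differences in the total exceeded the spread between arrays.

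**Figure D3:**
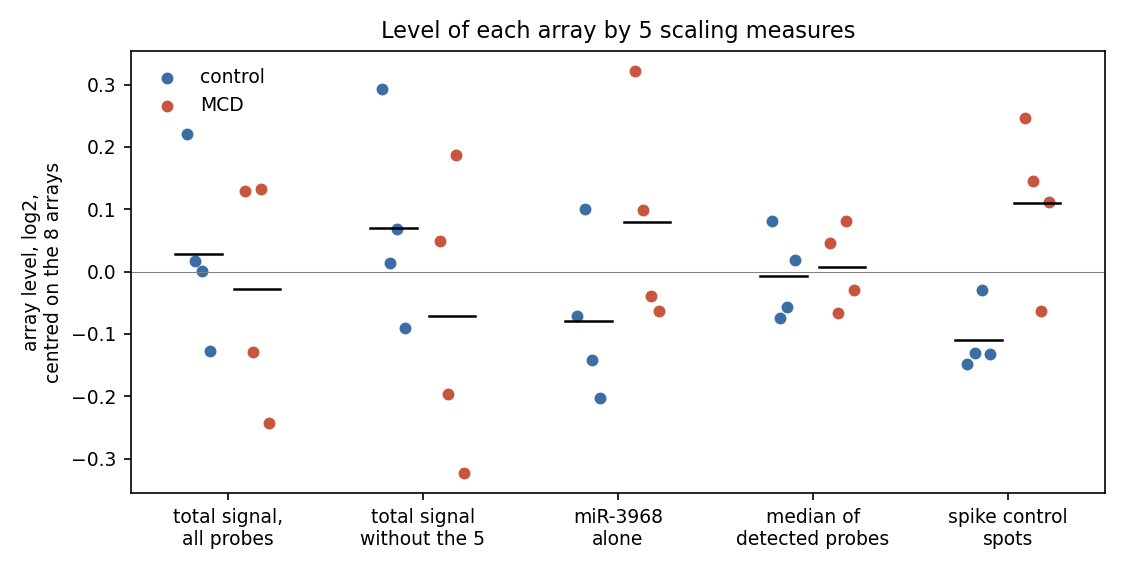
Level of each array on the log2 scale, centred on the 8 arrays, by 5 measures that could serve for scaling. Points are arrays and lines are group means. The diets differ by 0.02 for the median of detected probes, by -0.05 for the total signal, by -0.14 for the total without the 5 probes, by 0.16 for miR-3968 and by 0.22 for the spike control spots.

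The choice of the total changed the balance of calls. With scaling to the total, 56 probes were higher and 24 lower in MCD, so that 70% of the calls were higher, and the median change of all tested probes was 0.03. With the 5 probes left out of the total, 70 were higher and 17 lower, or 80.5% higher, and that median was 0.12. The main comparison had 60.2% of its calls higher. With scaling to the 75th percentile 31.6% were higher, and with the spike control spots 26.8%. The direction of miR-3968 turned under these last scalings, with log2 changes of -0.08 and -0.06, neither of which passed.

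Quantile normalization tied the brightest probe to 1 value. As miR-3968 ranked first on all 8 arrays, its log2 change there was exactly 0, and any change of this probe is outside what that method can show. Leaving the 5 out of the quantile step gave 64 higher and 49 lower probes, against 62 and 48 with them in it.

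**Figure D4:**
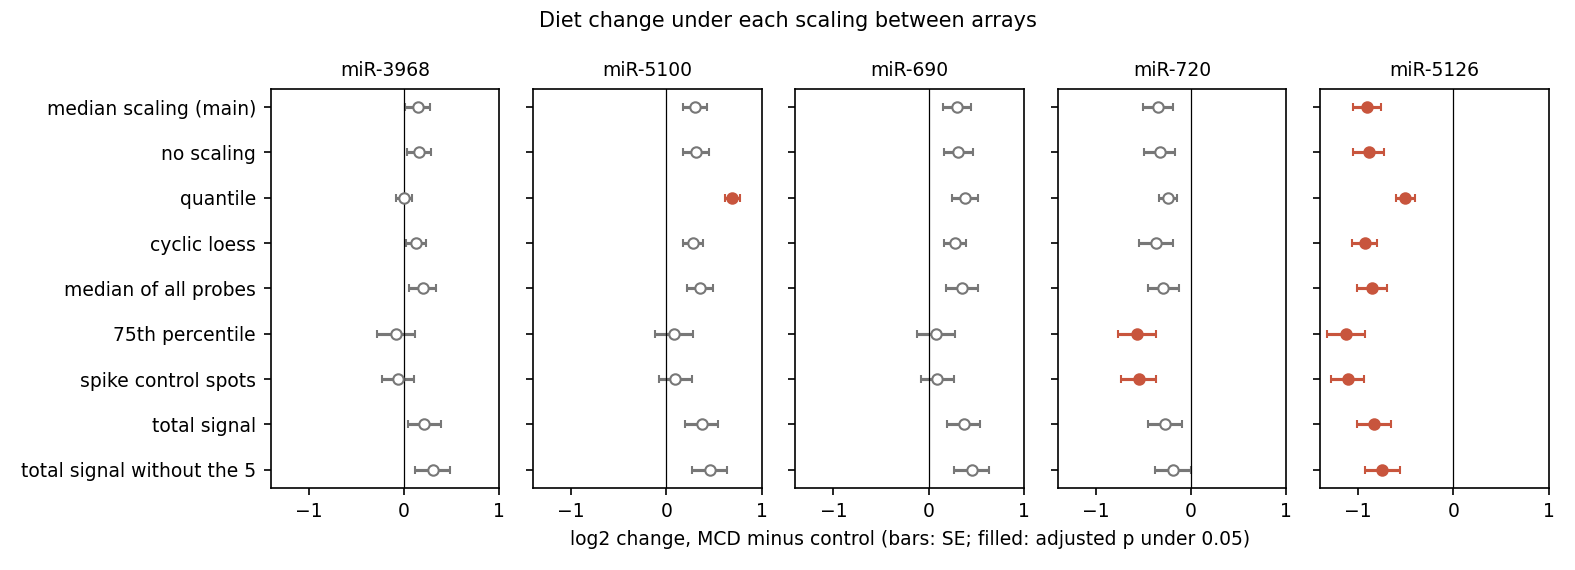
Log2 change from control to MCD of each of the 5 probes under 9 scalings between arrays. Points are limma estimates, bars are SEs, and filled points passed at an adjusted p under 0.05. The miR-5126 points lie at or below -0.50 throughout, miR-3968 lies at 0 under quantile normalization, and miR-720 is filled under the 75th percentile and spike control scalings.

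The probes whose scaled values ran most like those of a member were found by Pearson r over the 8 arrays. For each member the 3 highest of all tested probes were taken, and r includes the diet difference. Probes picked in this way tend to change in the direction of the member. Their changes, here and for the other members below, are descriptions and no separate support for a change of the member. For miR-5126 they were miR-328* (r = 0.99), miR-2861 (0.99) and miR-326* (0.98), all of which fell in MCD, with log2 changes of -0.79, -1.82 and -1.71 (limma, adjusted p = 0.000219, 1.19e-07 and 5.25e-08). The sequences of miR-328* and miR-326* were not compared, as sequences were matched by exact name. The miR-2861 sequence, at chr2:32712819-32712837 on the minus strand, is shown beside miR-5126 with the longest run that both hold in capitals.
miR-5126: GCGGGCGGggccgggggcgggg
miR-2861: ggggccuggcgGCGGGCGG
The 8 bases stood at bases 1 to 8 of miR-5126, which cover its seed, and at bases 12 to 19 of miR-2861. Of the 1679 mature sequences these 2 alone held the run (0.119%). The run was picked as the longest of these 2 sequences, both rich in guanine and cytosine. Its rarity is therefore a description of the letters. Guanine and cytosine made up 94.7% of miR-2861, which 2 mature sequences exceeded. They made up 85.7% of miR-2137, the probe next below miR-5126 in brightness, which fell from 8196 ± 2220 to 2522 ± 574 units (SD, n = 4), with no overlap of the diets. The longest run that miR-2137 had in common with miR-5126 was 6 bases, held by 6 of the 1679 mature sequences.

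For miR-5100 the closest probes were miR-126-3p (r = 0.95), miR-3084 (0.94) and miR-99a (0.93), which rose in MCD by 0.48, 0.69 and 0.61 on the log2 scale (limma, adjusted p = 0.0308, 0.00106 and 0.00959). The miR-126-3p strand is abundant in endothelial cells. For miR-690 they were miR-126-5p (r = 0.99), miR-19b (0.93) and miR-29b (0.92), with changes of 0.27, 0.42 and 0.33 that did not pass. For miR-720 they were miR-30c (r = 0.94), miR-431* (0.91) and miR-501-3p (0.88), and for miR-3968 they were miR-5046 (0.87), miR-669o-5p (0.87) and miR-712 (0.76), none of which passed. The miR-5046, miR-669o-5p, miR-712, miR-431* and miR-501-3p probes had mean intensities between 251 and 292 units, near the blank spots at 204 to 225.

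Probes with numbers near those of the members, the members apart, stand for entries named at about the same time. By median they were about as bright as the array as a whole. Of the 40 probes from miR-680 to miR-721 the median intensity was 257 units, of the 11 from miR-3960 to miR-3971 it was 255, and of the 38 from miR-5097 to miR-5136 it was 261, against 258 for all probes. Among the 50 brightest (4.41% of all probes) were 1 of the 40, 2 of the 11 and 3 of the 38. Over all tested probes 5.2% were higher and 3.44% lower in MCD, and against this 1 of the 38 tested probes of the first list was higher and 2 were lower, 0 and 1 of 9 in the second, and 2 and 5 of 35 in the third. These are small counts, and nothing particular to the lists is read from them. Their medians were log2 changes of -0.00, -0.06 and -0.12, against -0.04 for all tested probes.

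Named members of these lists went both ways. In the first, miR-711 fell by 1.48 and miR-680 by 0.54 on the log2 scale, while miR-708 rose by 0.99 (limma, adjusted p = 4.65e-08, 0.0113 and 2.58e-06). In the second, miR-3960, whose hairpin neighbours that of miR-2861, fell by 0.79 (adjusted p = 0.00107), and miR-3963 at -0.38 and miR-3967 at 0.16 did not pass. In the third, miR-5105 fell by 0.63, and miR-5099 and miR-5097 rose by 0.77 and 0.55 (adjusted p = 0.00169, 0.000239 and 0.00702).

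The 8 arrays correlated at 0.958 to 0.976 within diets and at 0.912 to 0.949 between them over the 1076 tested probes. Between 42.4% and 91.9% of the probes of an array lay above the blank limit. The lowest was control 2, while the other control arrays lay at 86.0% to 90.4%. MCD 1 was the lowest MCD array at 65.9%, and the other MCD arrays lay at 72.5% to 91.9%. The part of this in the member values of control 2 and MCD 1 was not tested. The scan position differed with the diet, the grid origin on the long axis being 3570 to 3690 for control arrays and 35140 to 35250 for MCD arrays, so a change between the diets and one between the 2 positions cannot be told apart. The mean of the spike control spots was 14520 ± 464 units for the control diet against 16892 ± 1410 for MCD (SD, n = 4), and MCD 3 at 14973 was the only MCD array within the control range.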

How the data were processed

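Liver RNA was measured on 8 one-colour oligonucleotide arrays. The authors deposited scanner files with an uncorrected spot intensity on a linear scale, and a table of processed intensity values. Set against the scanner values, that table was the spot intensity less a trimmed blank mean, times 1 factor per array, with a median of 45 in each column, and each value was matched within 0.025%. No single probe was centred in it, and it served as an alternative. The labels name the dye Hy5, the methods Hy3 and Hy5, and the scanner columns carry the wavelength of the green dye. The same columns served for every array.

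Intensities of all spots were corrected with normexp (offset 50, limma 3.58.1, R 4.3.3), log2-transformed and centred on each array's median over the 319 probes above the blank limit (mean plus 2 SD of blank spots) on all 8 arrays. The methods name a global normalization, a scaling to 28S RNA and a baseline correction, and the centring used here is 1 factor per array but not their formula. Probes above the limit on at least 4 arrays were tested with lmFit and eBayes, two-sided, Benjamini-Hochberg over 1076 probes, threshold 0.05, without a block. The fit was tested on simulated data. The offset understates the change of dim probes.

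The members, lists and tests were chosen with earlier results of these data known. Named were the 5 members, miR-122, the next 2 probes in brightness, the 3 probes most like each member, and up to 3 per number list with the smallest p. Alternatives covered background correction, scaling, filter, test, blocks, array weights and single arrays left out. The spot mean, a grid origin block and the total without miR-122 were chosen after seeing the data. Sequences and genes were matched by name to RefSeq (GRCm38.p6).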

Additional observations from a re-analysis of the deposited data

Results flagged for a closer look

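A single array stood apart in 2 of the 20 sets of 4 arrays examined, sets in which chance alone gives such a gap in about 1 of 20. On the MCD arrays the miR-3968 share of signal had its gap below MCD 3, which lay at 14.02% against 17.9% to 18.5% on the others, and this gap was 0.862 of the whole range, above Dixon's critical value for 4 samples. On the control arrays the miR-5126 share had its gap below control 2, at 1.88% against 2.61% to 2.71%, and this gap was 0.880 of the range.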

How the results depend on the processing

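The diet change of each member was computed under 32 other settings. The miR-5126 fall was called in all but plain blank subtraction (-0.99, adjusted p = 0.0538), with adjusted p from 8.27e-07 to 0.0538 and changes of -1.13 to -0.50. The lowest adjusted p came with 75th percentile scaling, where limma pooled the spread over probes and each member had an SE of 0.199. With the total without the 5 members the spread was pooled too, with an SE of 0.184 for each. The miR-5100 change (0.08 to 0.69) was called under quantile normalization alone (0.69). The miR-720 change (-0.57 to -0.17) was called with 75th percentile (-0.57) and spike control scaling (-0.55), under which miR-3968 turned to -0.080 and -0.062. The miR-690 change (0.07 to 0.45) was called without MCD 4. With single arrays left out the changes ran from 0.08 to 0.24 for miR-3968, 0.22 to 0.37 for miR-5100, 0.15 to 0.43 for miR-690, -0.46 to -0.17 for miR-720 and -1.01 to -0.82 for miR-5126. Against 56 higher and 37 lower probes, blank subtraction gave 17 and 11, the 75th percentile 30 and 65, spike controls 34 and 93, the total 24 lower and the total without the 5 members 17 lower. The methods' t-test on the authors' values gave 71 higher and 60 lower at its unadjusted threshold and 12 and 15 after Benjamini-Hochberg. Leaving out single arrays gave 42 to 76 higher and 23 to 38 lower, the fewest lower without MCD 2. The share of the 5 members was 18.1% in control and 20.3% in MCD on uncorrected intensity, 29.1% and 33.0% after normexp, and 35.8% and 40.8% over probes above the blank limit on all arrays. Without miR-122 in the total it was 36.6% in control, and without single arrays it was 31.6% to 32.7% and 35.6% to 37.7%. Whether the replicate numbers pair the arrays was not settled. Same-numbered arrays deviated together with correlations of -0.03 to 0.25, and 2 of 4 correlated best with their own number. With the replicate number as a block 63 probes were higher and 45 lower, and no member's call changed. The SE of the miR-5126 change was 0.12 with this block and 0.15 in the main comparison. With 4 pairs these values can neither show nor exclude a pairing. A slide block was not run because the files name no slide. Each member has 1 spot per array, and 4 arrays per diet limit the precision.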
